A study of Mus musculus with 10 samples.

Results

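The SLAM family receptors were followed in 10 arrays of mouse splenic CD11c+ dendritic cells (DCs), which take up antigen and present it to T cells. The members were the 8 genes Slamf1, Slamf6, Slamf7, Slamf8, Slamf9, Cd48, Cd84 and Ly9, chosen by name, out of 22180 genes with a probe set of 1 gene symbol. Each was read at the probe set with the highest mean over the arrays. The DCs came from C3ar1-/-C5ar1-/- mice (DRKO), which lack the receptors for the complement fragments C3a and C5a, or from wild-type (WT) mice and were collected 4 h after the mice received 100 µg CpG or vehicle. CpG is unmethylated DNA sensed by Tlr9. There were 3 arrays of DRKO DCs with CpG, 2 of DRKO DCs without stimulation, 3 of WT DCs with CpG and 2 of WT DCs without stimulation. The labels state neither strain, age and sex nor whether an array holds 1 mouse or a pool. The labels name no cell type to which the deletions are limited, so an effect in DCs and one in the rest of the animal cannot be told apart. The values are log2 intensities after RMA, which corrects background, brings arrays to a common distribution and summarises probes.

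SLAM receptors are surface proteins of blood cells with immunoglobulin-type domains, and most of them bind the same receptor on a neighbouring cell. Slamf1, Slamf6, Slamf7, Cd84 and Ly9 carry tyrosine motifs in their tails that recruit small adaptors. These are SAP (Sh2d1a) and EAT-2 (Sh2d1b1 and Sh2d1b2), and not every receptor recruits each of them. These adaptors connect the receptors to Src-family kinases such as Fyn, and without them the same motifs can recruit phosphatases such as SHIP-1 (Inpp5d). Slamf8 and Slamf9 have short tails without these motifs. Cd48 has no tail, is held by a lipid anchor and is the ligand of Cd244a, a further family member. On DCs and macrophages the family takes part in contact with T cells and in handling microbes.

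Promoter sequences are shown for the members whose transcripts changed with CpG. They cover 250 bases before to 50 after the start site and were taken from RefSeq (build GRCm38.p6), which held 7 of the 8 members. They run 5′ to 3′ along the gene. Slamf1 lies on the plus strand at chr1:171766882-171767181, Slamf9 on the plus strand at chr1:172475110-172475409 and Slamf8 on the minus strand at chr1:172590519-172590818. Capitals mark matches, on either strand, to the NF-kB consensus or to the ISRE core GAAANNGAA, the element of interferon-regulated genes.
Slamf1: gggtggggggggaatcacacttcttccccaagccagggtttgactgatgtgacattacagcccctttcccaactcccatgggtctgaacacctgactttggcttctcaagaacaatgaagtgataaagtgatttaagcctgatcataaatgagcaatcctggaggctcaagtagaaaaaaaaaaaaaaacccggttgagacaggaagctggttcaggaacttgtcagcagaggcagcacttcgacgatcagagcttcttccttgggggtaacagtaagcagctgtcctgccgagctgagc
Slamf9: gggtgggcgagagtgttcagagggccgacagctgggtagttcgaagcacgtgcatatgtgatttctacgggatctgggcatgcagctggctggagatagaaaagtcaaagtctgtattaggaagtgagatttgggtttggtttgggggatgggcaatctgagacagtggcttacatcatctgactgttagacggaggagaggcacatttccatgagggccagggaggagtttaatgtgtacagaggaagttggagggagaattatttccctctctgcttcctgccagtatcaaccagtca
Slamf8: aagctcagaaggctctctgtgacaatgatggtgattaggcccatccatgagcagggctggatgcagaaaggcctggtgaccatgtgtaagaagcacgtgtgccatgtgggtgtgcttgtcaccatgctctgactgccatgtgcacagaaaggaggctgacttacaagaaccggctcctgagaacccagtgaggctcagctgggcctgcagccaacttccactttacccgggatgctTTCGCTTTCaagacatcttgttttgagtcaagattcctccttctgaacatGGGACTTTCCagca

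A match to the NF-kB consensus was present in 8.46% of all 32851 promoter windows of this length, to the ISRE core in 8.56% and to the GAS core TTCNNNGAA in 8.30%. Slamf8 held 1 NF-kB match, beginning 37 bases into the transcript, and 1 ISRE match, beginning 14 bases before the start, and the matches do not overlap. Cd84 held 2 ISRE matches, 1 on each side of the start site and not overlapping. No match to the 3 motifs lay in the windows of Slamf1, Slamf6, Slamf7, Slamf9 and Cd48. A match is a run of letters and no measured binding.

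All 8 members lay above the array median of all probe sets on all 10 arrays and were among the 13371 genes tested. DC markers were present on all arrays. Itgax (CD11c) measured 10.72 to 11.89 and the class II chain H2-Aa 12.86 to 13.13. The growth factor receptor Flt3 measured 9.79 to 10.59 and the DC transcription factor Zbtb46 7.37 to 8.18. Macrophage genes were high too, with Vcam1 at 9.20 to 11.67, Spic at 8.78 to 11.42 and Adgre1 at 9.12 to 10.68. The DC markers therefore do not show that the isolates held DCs alone. After CpG, Itgax was 11.23 to 11.59 in DRKO and 10.72 to 11.09 in WT. Flt3 was 10.2 to 10.31 in DRKO and 9.79 to 9.93 in WT. Those ranges did not overlap, while those of H2-Aa and Zbtb46 did. C3ar1 measured 5.27 to 5.64 in the 5 DRKO arrays and 5.80 to 6.59 in the 5 WT arrays, and C5ar1 4.42 to 4.99 in DRKO and 5.51 to 7.32 in WT. The position of these probes relative to the deleted parts is not given, so the values are no check of the genotype. Sample titles carry numbers, which were split at 20 into title series for this report, a split that the labels do not call a batch. DRKO unstimulated 2, DRKO CpG 3 and WT CpG 3 are numbered 20 and over. The other 3 DRKO arrays carried Y-linked signal (mean of 3 genes 7.33 to 7.93) and the remaining 7 arrays of the series did not (3.21 to 3.68). Xist, a transcript of female cells, ran the other way, at 4.32 to 4.91 in those 3 and 10.41 to 10.85 in the 7. No WT array carried Y-linked signal, so for those 3 DRKO arrays sex and genotype cannot be told apart against WT. Splenic macrophage markers (14 tested, median level centred per gene) stood at -1.15 in DRKO unstimulated 2 and -1.21 in DRKO CpG 3, and at 0.04 to 0.55 in the other arrays. In DRKO DCs the title series, the Y-linked signal and the macrophage marker level therefore separate the same arrays and cannot be told apart.

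Slamf1, a self-binding receptor that also recognises bacterial surface proteins in mouse macrophages, was the member that changed most after CpG. It measured 8.64, 8.92 and 8.48 in DRKO DCs with CpG and 5.77 and 5.93 in DRKO DCs without. In WT DCs it measured 9.70, 10.04 and 10.05 with CpG and 6.99 and 5.91 without. Every CpG array stood above every unstimulated array, and 1 unstimulated WT array, at 6.99, stood above the other 3. Slamf1 rose with CpG by 2.83 ± 0.27 (SE of the contrast) in DRKO DCs, a 7.12-fold change (limma adjusted p = 0.000356). It rose by 3.48 ± 0.27 in WT DCs, an 11.1-fold change (limma adjusted p = 5.68e-05). Unstimulated values of 5.77 to 5.93 in 3 of 4 arrays lay close to the array medians of 5.50 to 5.56. The deposited table holds no background level, so whether background limits these folds or their difference between genotypes was not tested. By p-value Slamf1 ranked 24 in DRKO and 20 in WT among the 13371 genes tested. The rise in WT was 4.02 without the array at 6.99 and 2.94 without the other unstimulated WT array, and passed in both cases. Within the titles under 20, the change was 3.01 in DRKO and 3.42 in WT. In the titles of 20 and over it was 2.55 in DRKO, from 1 array on each side.

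**Figure D1:**
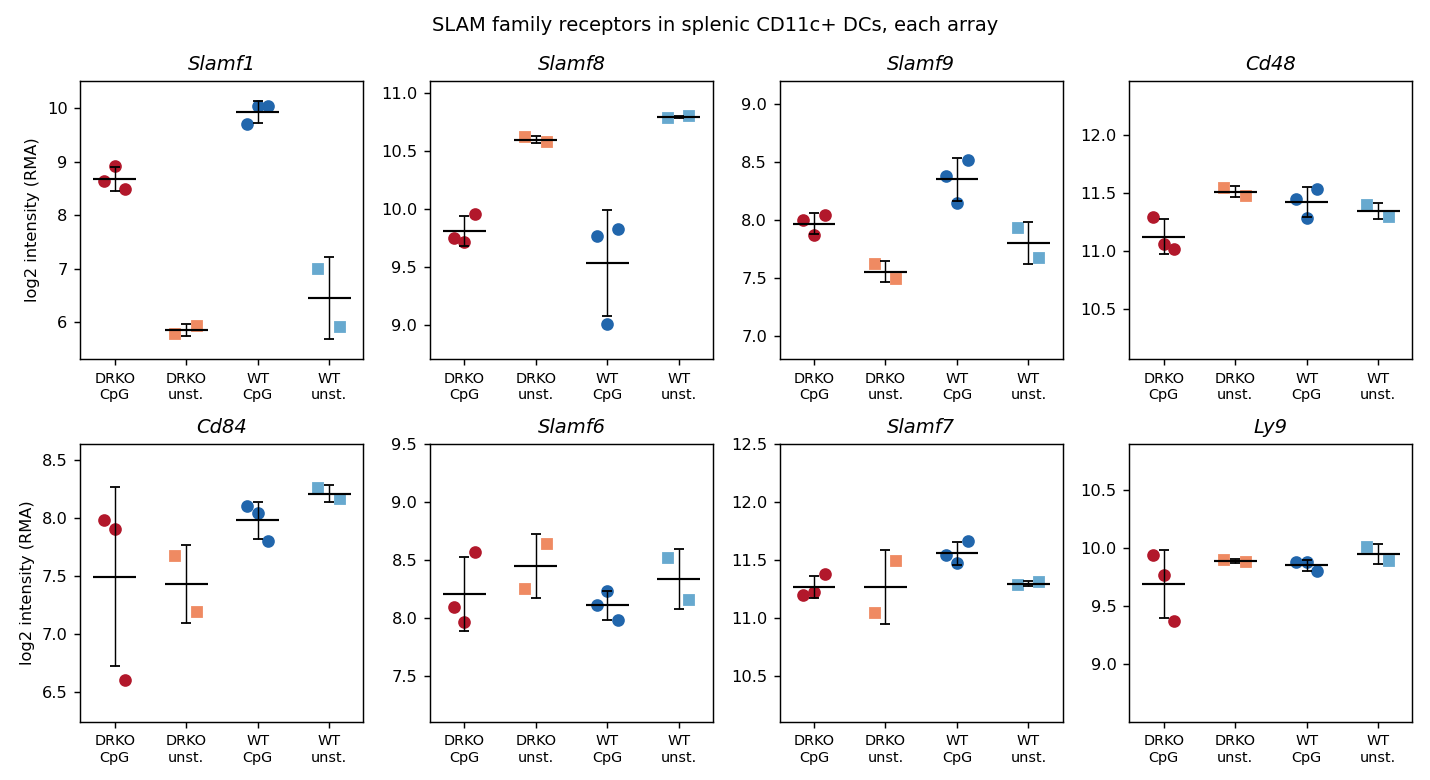
Log2 intensity of each of the 8 members (vertical axis; 1 panel per gene, ranges differ) in each array of the 4 groups, with the group mean and its SD as bars. Slamf1 is above 8.4 in all 6 CpG arrays and at or below 6.99 in all 4 unstimulated arrays, Slamf8 runs the other way, and Cd84 is lowest, at 6.60, in 1 DRKO CpG array.

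Slamf8 and Slamf9, the pair with short tails, changed in opposite directions. Slamf8, which restrains the oxidative burst in mouse macrophages, measured 9.75, 9.72 and 9.96 in DRKO DCs with CpG and 10.62 and 10.58 without. WT DCs had values of 9.77, 9.01 and 9.83 with CpG and 10.79 and 10.80 without. CpG and unstimulated arrays did not overlap in either genotype, and the share of all tested genes for which this held was not computed. Slamf8 fell by 0.79 ± 0.21 in DRKO DCs (limma adjusted p = 0.0420) and fell by 1.26 ± 0.21 in WT DCs (limma adjusted p = 0.00241). In DRKO the call was close to the threshold, and the adjusted p ranged from 0.00564 to 0.153 over 23 alternatives, with changes of -0.89 to -0.74. It did not pass without DRKO CpG 1 (0.107), DRKO CpG 2 (0.103), DRKO unstimulated 1 (0.149), DRKO unstimulated 2 (0.153), WT CpG 1 (0.0526), WT unstimulated 1 or WT unstimulated 2 (0.0673 each). In WT it passed under all 23, with changes of -1.41 to -0.99.

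Slamf9 measured 8.0, 7.87 and 8.04 in DRKO DCs with CpG and 7.62 and 7.49 without. In WT DCs it measured 8.38, 8.15 and 8.52 with CpG and 7.93 and 7.67 without. The CpG arrays lay above the unstimulated ones in both genotypes, again without a share of all tested genes to set beside it. Slamf9 rose by 0.55 ± 0.14 in WT DCs (limma adjusted p = 0.0180), though not past the threshold without WT unstimulated 2 (0.171), WT CpG 1 (0.0541) or WT CpG 3 (0.0580). In DRKO DCs the change was 0.41 ± 0.14 and did not pass (limma adjusted p = 0.0956). Averaged over both genotypes, the change was 0.48 ± 0.10 (limma adjusted p = 0.00451).

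The remaining members did not pass in either genotype. Cd48, the ligand of Cd244a, measured 11.30, 11.06 and 11.02 in DRKO DCs with CpG, against 11.55 and 11.48 without. WT DCs had values of 11.45, 11.29 and 11.54 with CpG, against 11.40 and 11.30 without. The DRKO groups did not overlap and the WT groups did. How many of all tested genes had no overlap between CpG and unstimulated arrays was not counted. The change was -0.39 ± 0.13 in DRKO (limma adjusted p = 0.0838) and 0.08 ± 0.13 in WT (limma adjusted p = 0.723). With limma's trend and robust options the change in DRKO passed (adjusted p = 0.0456).

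Slamf7, a self-binding receptor that signals through EAT-2 in NK cells, measured 11.20, 11.22 and 11.38 in DRKO DCs with CpG and 11.04 and 11.49 without. In WT DCs it measured 11.54, 11.47 and 11.66 with CpG and 11.28 and 11.31 without. Its change in DRKO had a 95% interval of -0.32 to 0.32 (limma adjusted p = 0.997). The change was 0.26 ± 0.14 in WT (limma adjusted p = 0.249). Slamf6, a receptor best known from T cells and NK cells, measured 7.96 to 8.57 in DRKO DCs with CpG and 8.25 and 8.64 without, and 7.98 to 8.23 in WT DCs with CpG and 8.15 and 8.52 without. Its change was -0.24 ± 0.20 in DRKO and -0.23 ± 0.20 in WT. A further probe set of Slamf6 lay close to the array medians, at 4.94 to 5.77, and was not used in the main fit. With the mean of both probe sets the change of Slamf6 was -0.025 in DRKO and 0.057 in WT, neither past the threshold. Ly9, a self-binding receptor of lymphocytes and DCs, measured 9.37 to 9.94 in DRKO DCs with CpG and 9.88 and 9.90 without, and 9.80 to 9.88 in WT DCs with CpG and 9.89 and 10.01 without. Its change was -0.20 ± 0.16 in DRKO and -0.10 ± 0.16 in WT, and the 95% interval in WT was -0.45 to 0.25.

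**Figure D2:**
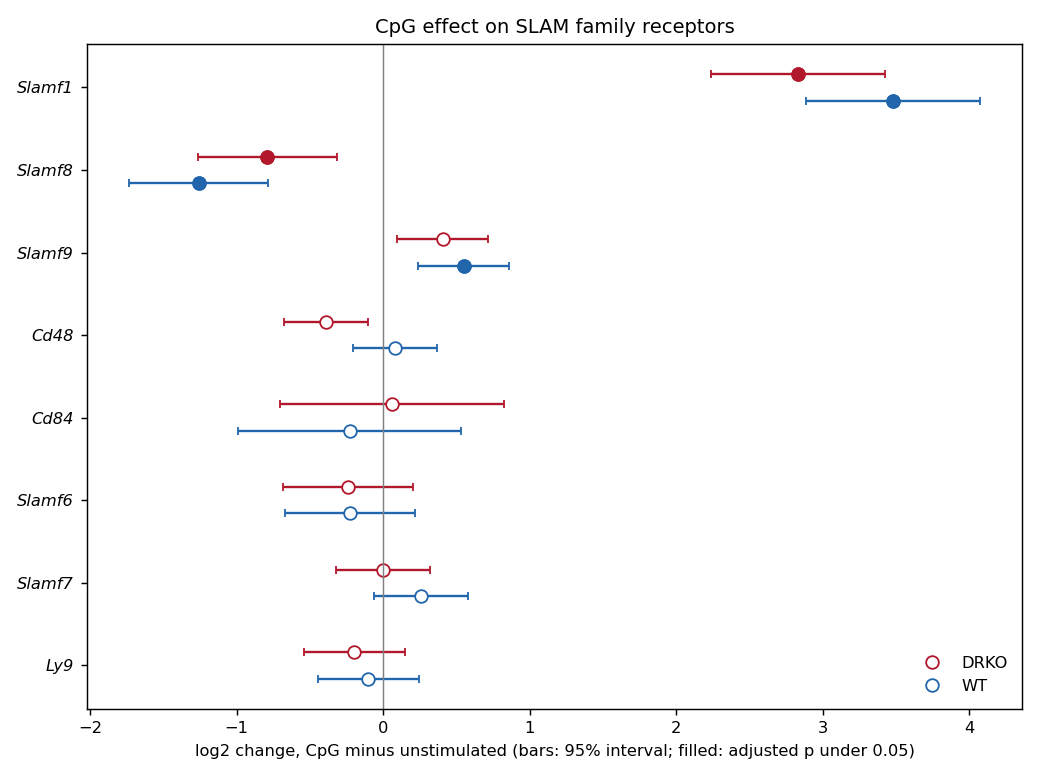
Log2 change with CpG (horizontal axis) of each member in DRKO and in WT DCs, with 95% intervals from the fit over all genes and filled points for an adjusted p under 0.05. Slamf1 is far to the right in both genotypes (2.83 in DRKO and 3.48 in WT), Slamf8 to the left, and the intervals of Cd84, Slamf6, Slamf7 and Ly9 include 0.

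In DRKO DCs, 1 of the 8 members rose and 1 fell. Of all tested genes, 4.54% rose and 5.76% fell in that comparison, 10.3% together. In WT DCs, 2 of the 8 rose and 1 fell, against 8.24% risen and 13.3% fallen of all tested genes, 21.6% together. Averaged over genotypes, 2 rose and 1 fell, where 11.2% of all tested genes rose and 18.6% fell, 29.8% together. The median change of the members was -0.10 in DRKO and -0.01 in WT, beside -0.04 and -0.04 for all tested genes. The family as a whole therefore had a median near that of all genes, with the size of the response differing from member to member.

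Other cells in a CD11c+ isolate also carry SLAM receptors, and their markers moved in part with stimulation. In bulk samples, fewer cells of a type and less RNA per cell cannot be told apart. For the counts below, 5.76% of all tested genes fell and 4.54% rose with CpG in DRKO, and 13.3% fell and 8.24% rose in WT. Of 10 tested B cell markers, 3 fell with CpG in DRKO and 5 in WT, and none rose. Their level was -0.44 to 0.08 in DRKO CpG arrays and 0.18 to 0.45 in unstimulated DRKO arrays, and -0.34 to -0.21 in WT CpG arrays and 0.33 to 0.45 in unstimulated WT arrays. Of 9 tested cDC1 markers, 4 fell and 1 rose in DRKO, and 6 fell and 1 rose in WT. The cDC1 level was -0.21 to 0.12 in DRKO CpG arrays and 0.24 to 0.48 in unstimulated DRKO arrays, and -0.72 to -0.31 in WT CpG arrays and 0.45 to 0.47 in unstimulated WT arrays. T cell markers (8 tested) had 1 risen and 1 fallen in each genotype, with levels of -0.22 to 0.16 in DRKO CpG, -0.38 to 0.56 in DRKO unstimulated, -0.22 to 0.15 in WT CpG and -0.17 to 0.04 in WT unstimulated arrays. Cd3e, which defines T cells, measured 5.22 to 6.28, close to the array median. The part of B cell and cDC1 markers in the changes of Slamf1, Slamf8 and Slamf9 was not tested. With the macrophage marker level in the fit, the change of Slamf1 was 2.79 in DRKO and 3.51 in WT, and that of Slamf8 was -0.78 and -1.27.

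Whether the response to CpG differs without the receptors for C3a and C5a was addressed by setting DRKO against WT DCs. After CpG, Slamf1 was lower in all 3 DRKO arrays (8.48 to 8.92) than in all 3 WT arrays (9.70 to 10.05). The difference was -1.25 ± 0.24, or 2.38-fold, with a 95% interval of -1.78 to -0.72. It did not pass over all genes (unadjusted p = 0.000332, limma adjusted p = 0.0643). The adjusted p ran from 0.0244 to 0.219 over the 23 alternatives, and the difference from -1.38 to -1.09. Its adjusted p was under 0.05 when the title series entered as a block (0.0350), with the Y-linked signal (0.0244) or the macrophage marker level (0.0446) as a covariate, and without WT unstimulated 1 or WT unstimulated 2 (0.0321 each). Within the titles under 20 the difference was -1.09, and within the titles of 20 and over it was -1.58, from 1 array each. Under 20, the DRKO CpG arrays carried Y-linked signal (7.75 and 7.33) and the WT CpG arrays did not (3.68 and 3.48). In the titles of 20 and over, the macrophage marker level was -1.21 in DRKO CpG 3 and 0.35 in WT CpG 3. Within a title series these factors and genotype cannot be told apart.

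Slamf9 and Slamf7 were also lower in every DRKO CpG array than in every WT CpG array. Slamf9 differed by -0.39 ± 0.13 (unadjusted p = 0.0113, limma adjusted p = 0.200) and Slamf7 by -0.29 ± 0.13 (unadjusted p = 0.0464, limma adjusted p = 0.337). Cd48 overlapped by 1 array, at 11.30 in DRKO against 11.29 in WT, and differed by -0.30 ± 0.12 (unadjusted p = 0.0242, limma adjusted p = 0.267). Thus 3 of 8 members had DRKO arrays wholly below the WT arrays and 0 wholly above, where 7.58% of all tested genes lay wholly below and 11.6% wholly above. Limma called 0 of the 8 members and 0.12% of all tested genes after CpG. At an unadjusted p under 0.05 there were 4 of 8 members and 14.3% of all tested genes. Slamf8 differed by 0.28 ± 0.19 and Slamf6 by 0.10 ± 0.18, neither past the threshold, and Ly9 by -0.16 ± 0.14. Markers of other cells also differed in level between the genotypes, with 0 of them called. Neutrophil markers had a median difference of -1.76 after CpG and -1.76 without stimulation. After CpG their level was -1.74 to 0.02 in DRKO arrays and -0.08 to 1.75 in WT arrays, so 2 of 3 DRKO arrays overlapped the WT range. The cDC1 level after CpG did not overlap, at -0.21 to 0.12 in DRKO and -0.72 to -0.31 in WT, with a median difference of 0.14. The part of these markers in the differences of Slamf1, Slamf7 and Slamf9 was not tested.

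**Figure D3:**
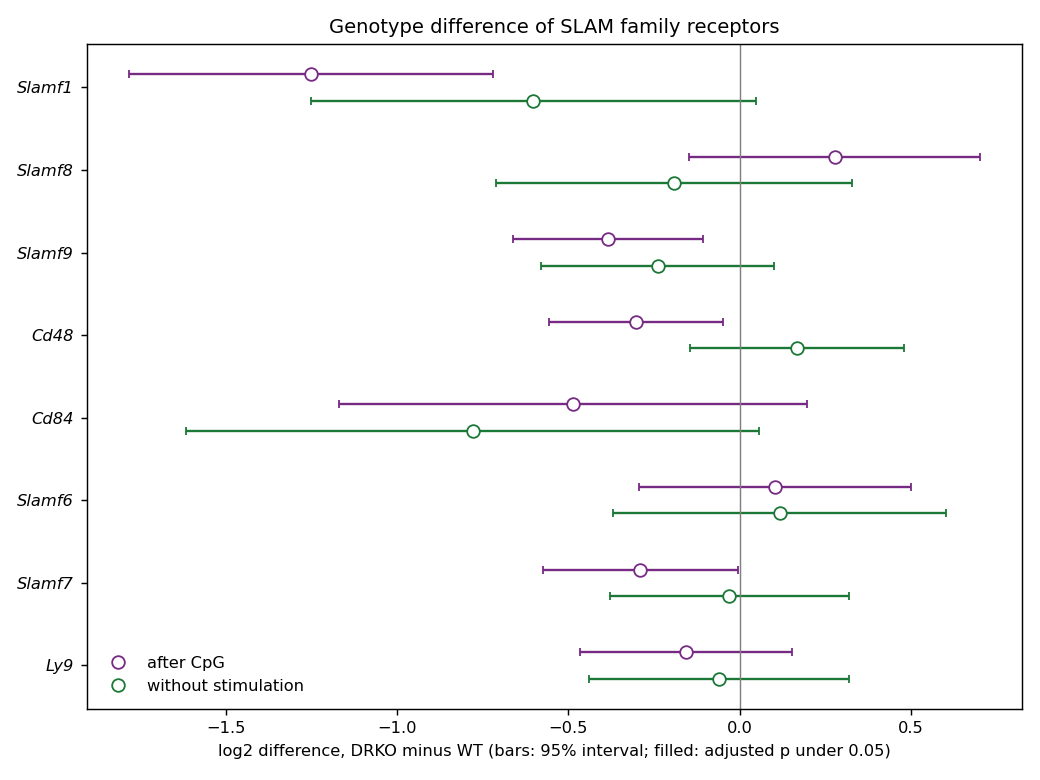
Log2 difference of DRKO minus WT (horizontal axis) for each member after CpG and without stimulation, with 95% intervals; no point is filled, since no adjusted p was under 0.05. After CpG the intervals of Slamf1 (-1.78 to -0.72), Slamf9, Cd48 and Slamf7 lie below 0, and without stimulation all intervals include 0.

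Without stimulation, limma called 0 of the 8 members, and 0 had an unadjusted p under 0.05. Of all tested genes 0.00748% were called and 4.6% had such a p. Slamf1 differed by -0.60 ± 0.29 (limma adjusted p = 0.992). That value depended on the WT array at 6.99 and was -0.06 without it and -1.14 without the other unstimulated WT array. Testing DRKO against WT for the size of the CpG effect called 0 members, against 0.00748% of all tested genes. For Slamf1 the CpG effect in DRKO minus that in WT was -0.65 ± 0.38, with a 95% interval of -1.49 to 0.19 (limma adjusted p = 0.914). For Slamf8 it was 0.47 ± 0.30 (limma adjusted p = 0.925). Cd48 had the only unadjusted p under 0.05 among the members (0.0261), at -0.47 ± 0.18 (limma adjusted p = 0.851). Averaged over stimulation, limma called 0 members and 0.0972% of all tested genes. Slamf1 (-0.93), Cd84 (-0.63) and Slamf9 (-0.31) had an unadjusted p under 0.05 there (limma adjusted p = 0.127, 0.348 and 0.280).

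Cd84, a self-binding receptor of platelets, lymphocytes and macrophages, had the largest SD of the 8 members within the DRKO CpG group (0.78, n = 3). It measured 7.98, 7.90 and 6.60 in DRKO DCs with CpG and 7.67 and 7.19 without. WT DCs had values of 8.10, 8.04 and 7.80 with CpG and 8.26 and 8.16 without. The lowest values, 6.60 and 7.19, came from DRKO CpG 3 and DRKO unstimulated 2, the arrays in which macrophage markers were also lowest. In those arrays the macrophage gene Cd5l measured 6.54 and 6.69, against 8.70 to 9.16 in the other 8, and Vcam1 measured 9.20 and 9.90, against 10.64 to 11.67. Neutrophil markers (11 tested) were lowest in the same arrays, at -1.74 and -1.47. They stood at -0.68 in DRKO unstimulated 1, -0.07 and 0.02 in the other DRKO CpG arrays and -0.08 to 1.75 in WT arrays. NK cell markers (8 tested) were lowest there too, at -0.67 and -1.02, against -0.33 to 0.78 in the other arrays. The same held for erythroid markers (3 tested), at -0.45 and -0.36, against -0.24 to 0.75. Other lists ran the other way. Conventional DC markers (11 tested) were highest in those arrays, at 0.15 and 0.14, against -0.13 to 0.05. In DRKO CpG 3, cDC2 markers stood at 0.12 and B cell markers at 0.08, above the other DRKO CpG arrays. In DRKO unstimulated 2 they stood at 0.46 and 0.45, against 0.14 and 0.18 in DRKO unstimulated 1.

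The genotype difference of Cd84 after CpG was -0.49 ± 0.31 (limma adjusted p = 0.515) and without stimulation -0.78 ± 0.38 (limma adjusted p = 0.992). Without DRKO CpG 3 the difference after CpG was -0.04. With the macrophage marker level as a covariate the differences were -0.31 and -0.26, neither past the threshold. With the Y-linked signal as a covariate they were -1.07 and -1.29 and passed (limma adjusted p = 0.0124 and 0.00946). That signal was high in DRKO arrays alone, so this fit mainly set DRKO CpG 3 and DRKO unstimulated 2 against WT. Those are the arrays with the lowest macrophage marker level. The change of Cd84 with CpG did not pass in either genotype, at 0.06 ± 0.35 in DRKO and -0.23 ± 0.35 in WT.

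**Figure D4:**
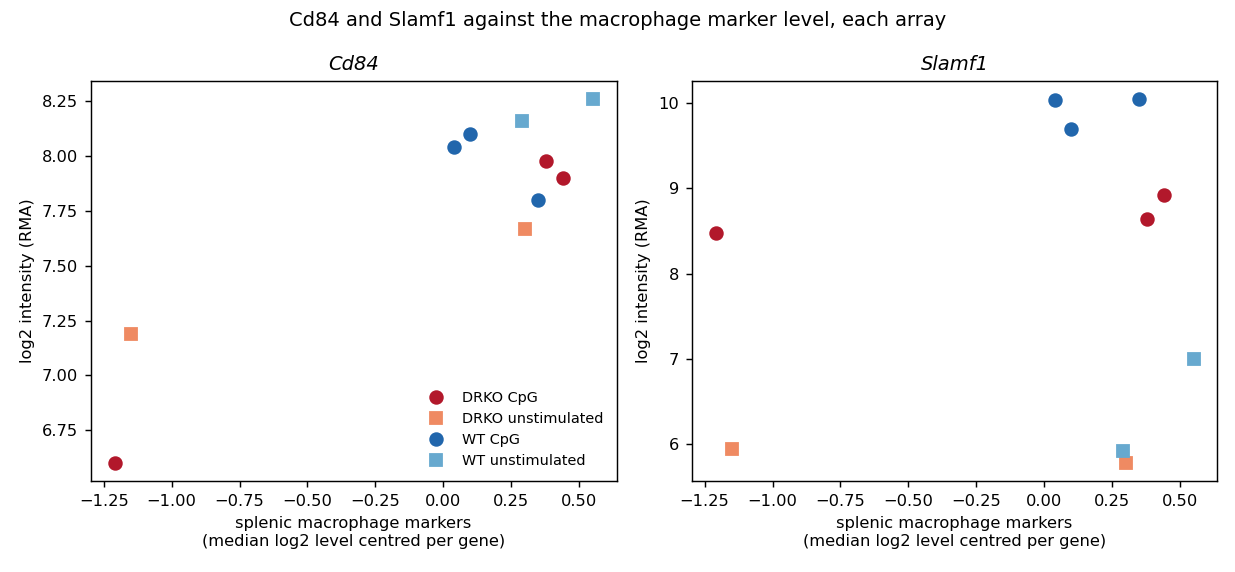
Cd84 (left) and Slamf1 (right) in log2 intensity against the splenic macrophage marker level (horizontal axis, median log2 level centred per gene) in each array. The 2 DRKO arrays at -1.21 and -1.15 have the lowest Cd84, 6.60 and 7.19, while Slamf1 in them (8.48 and 5.93) stays within 0.5 of the other DRKO arrays of the same stimulation.

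The adaptors and partners of the family were read as a list of 33 genes, of which 28 were tested. In DRKO DCs 1 rose with CpG and 6 fell, and in WT DCs 2 rose and 7 fell, beside the shares of all genes given above. The median change was 0.11 in DRKO and -0.06 in WT. Sh2d1b1 (EAT-2), the adaptor of NK cells and antigen-presenting cells, measured 7.67, 7.44 and 7.67 in DRKO DCs with CpG and 8.24 and 8.60 without. In WT DCs it measured 7.13, 7.11 and 7.51 with CpG and 8.13 and 8.33 without. It fell by 0.82 ± 0.17 in DRKO (limma adjusted p = 0.0126) and fell by 0.98 ± 0.17 in WT (limma adjusted p = 0.00231). The other adaptors, Sh2d1a and Sh2d1b2, were below the median on all 10 arrays, at 4.78 to 5.43 and 4.6 to 5.34, and were not tested.

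The kinase Fyn rose by 0.69 ± 0.16 in DRKO and by 0.93 ± 0.16 in WT (limma adjusted p = 0.0223 and 0.00245). Another Src-family kinase, Fgr, rose by 0.63 in WT and measured a difference of 0.45 in DRKO, which did not pass (limma adjusted p = 0.0596). Inpp5d (SHIP-1), a lipid phosphatase, measured 9.39, 10.05 and 10.04 in DRKO DCs with CpG and 10.71 and 10.56 without. WT DCs had values of 8.82, 8.68 and 8.83 with CpG and 10.58 and 10.77 without. It fell by 0.81 ± 0.19 in DRKO and fell by 1.89 ± 0.19 in WT (limma adjusted p = 0.0248 and 0.000160). For Inpp5d the CpG effect in DRKO minus that in WT was 1.09 ± 0.27 and did not pass (limma adjusted p = 0.734). After CpG its genotype difference was 1.05 ± 0.17 (limma adjusted p = 0.0572), with all DRKO arrays above all WT arrays. Plcg2, a phospholipase, fell by 0.54 in DRKO and fell by 0.65 in WT, and the T and B cell coreceptor Cd5 fell by 1.16 in DRKO and fell by 1.24 in WT. The phosphatase Ptpn6 (SHP-1) fell by 0.45 in DRKO and differed by -0.26 in WT without passing. Uvrag, a subunit of the complex with Pik3c3 and Becn1 that Slamf1 engages in mouse macrophages, fell by 0.62 in WT and differed by -0.27 in DRKO without passing. Of its partners, named after their values were seen, Pik3c3 fell by 0.45 in DRKO and fell by 0.43 in WT (limma adjusted p = 0.0402 and 0.0279), and Becn1 differed by 0.21 in DRKO and -0.05 in WT without passing. Cd244a, the receptor for Cd48, differed by 0.31 ± 0.17 in DRKO and 0.44 ± 0.17 in WT and passed in neither, and passed when averaged over genotypes, at 0.38 ± 0.12 (limma adjusted p = 0.0334).

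The 8 members lie on chromosome 1 in 1 stretch of the gene order (GRCm38.p6, used for order only), with Ly9, Slamf7, Cd48, Slamf1, Cd84 and Slamf6 at one end and Slamf9 and Slamf8 at the other. Of 19 other protein-coding genes in the stretch, 14 were tested, and only protein-coding genes are considered here. In DRKO DCs 1 of them rose with CpG and 0 fell, and in WT DCs 2 rose and 2 fell, beside 4.54% risen and 5.76% fallen of all tested genes in DRKO and 8.24% and 13.3% in WT. The nearest tested genes to Slamf1 were Cd48 and Cd84, which did not pass. Between Slamf9 and Slamf8 lie 4 tested genes, of which Cfap45 and Vsig8 did not pass in either genotype. The others, Tagln2 and Igsf9, rose by 0.95 ± 0.16 and 0.87 ± 0.23 in WT (limma adjusted p = 0.00231 and 0.0212) and differed by 0.34 and 0.59 in DRKO without passing. Kcnj10, a potassium channel gene, fell by 1.92 ± 0.40 in WT and Pea15a fell by 0.42, and neither passed in DRKO (-0.48 and -0.27). Pex19, a peroxisome biogenesis gene, rose by 0.48 in DRKO and differed by 0.04 in WT without passing.

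**Figure D5:**
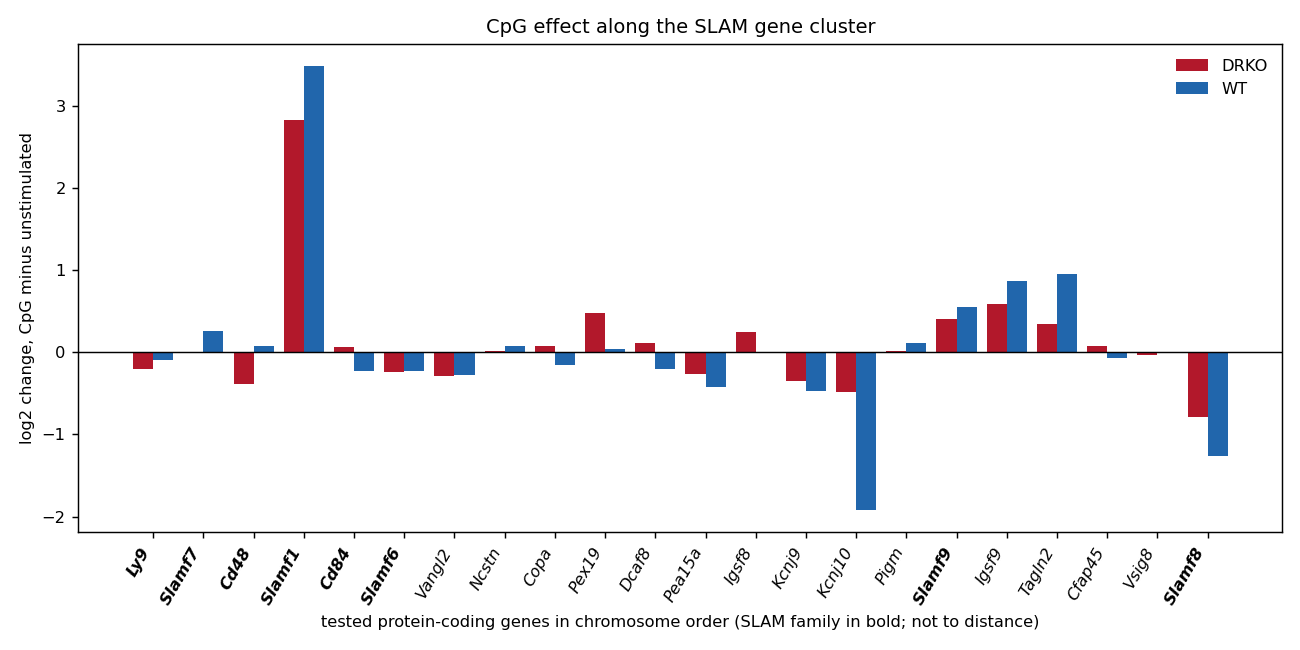
Log2 change with CpG (vertical axis) of the 22 tested protein-coding genes of the SLAM stretch in chromosome order, for DRKO and WT DCs. Members are in bold and distances are not drawn. Slamf1 (2.83 in DRKO and 3.48 in WT) stands between neighbours with changes of at most 0.39 in size, and Slamf8 closes the row at -0.79 and -1.26.

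Pearson's r over the 10 arrays, which include stimulated and unstimulated samples, described which genes followed each member. For Slamf1 they were Atp6v0a1 (0.992), Car13 (0.991) and Cd86 (0.990), a costimulatory ligand of T cells. For Slamf8 they were Tmem161b (0.975), Rnpep (0.973) and Mxd4 (0.973), and for Slamf9 Hnrnph2 (0.968), Gm7160 (0.962) and Mid1 (0.955). Cd84 was followed by Asph (0.988), Epb41l1 (0.971) and Slpi (0.967), and Ly9 by Xkr5 (0.965), Klf3 (0.954) and Vstm2l (0.950). Slamf6 was followed by Ska1 (0.930), Ska2 (0.926) and Cdc25c (0.919), which act in cell division. For Slamf7 they were Sfmbt1 (0.938), Ccnc (0.919) and Phip (0.914), and for Cd48 H2ab1 (0.911), Gm4340 (0.911) and Slc6a2 (0.896). Among the members themselves, Slamf1 correlated at 0.89 with Slamf9 and at -0.90 with Slamf8, and Cd84 at 0.82 with Ly9. The arrays share their stimulation groups, r within a group was not computed, and no p is attached to these values.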

How the data were processed

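RNA of splenic CD11c+ DCs was measured on Mouse Gene 2.0 ST arrays of Affymetrix, 1 per sample. The authors deposited log2 intensities per probe set, and the submitters' processing notes name RMA and Affymetrix Expression Console, without versions. The genome build, and whether all arrays were normalized together, are not stated. A kit is named for a first batch whose samples the labels do not list. The labels do not say that the arrays of a group came from separate mice, so p-values measure the spread between these samples, which may be technical. The small number of arrays limits the precision.

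Of 41345 probe sets, 23521 had 1 symbol, 1814 several and 16010 none, and 23328 of the first kind matched RefSeq by gene identifier. The probe sets with 1 symbol gave 22180 genes, read at the probe set with the highest mean (1082 had more than 1). Genes above the array median on at least 2 arrays were tested (13371). Limma 3.58.1 in R 4.3.3 was fitted with 4 group means over all 10 arrays (6 residual and 4.49 prior degrees of freedom) for 7 contrasts, two-sided, with Benjamini-Hochberg adjustment over all tested genes and a call at an adjusted p under 0.05. The procedure was tested on simulated data with independent noise. These data held no title series, sex or macrophage structure, so that test does not cover those factors. Values after ± are standard errors. Marker levels are medians of log2 values centred per gene. Replicate numbers follow accession order and pair no samples. The members, gene lists, contrasts and the rule for naming genes (all members, up to 8 partner genes and up to 6 locus genes with the smallest p, and 3 genes most like each member) were chosen with earlier results of these data known. The promoter table is RefSeq's. Protein sequences were not used here.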

Additional observations from a re-analysis of the deposited data

How the results depend on the processing

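The 23 alternatives changed the filter, the probe set per gene, the normalization, the variance model, the covariates or the arrays. The 2 calls of Slamf1 and the call of Slamf8 in WT passed under all of them, with changes of Slamf1 from 2.71 to 3.01 in DRKO and 2.94 to 4.02 in WT. For CpG in DRKO the count of members called was 2, and 1 with no filter, with all probe sets tested one by one, with only title numbers under 20 and without the DRKO arrays with title numbers of 20 and over, 1 to 2 when each array was left out, and 3 with limma's trend and robust options, which added Cd48. The call lost was that of Slamf8 in each case. The first pair tests more features and the others use fewer arrays, and why the call was lost was not tested. Some fits with fewer arrays kept it. Those were the fits without DRKO CpG 3, WT CpG 2 or WT CpG 3 (limma adjusted p = 0.0334, 0.00564 and 0.0365). For DRKO minus WT after CpG the count was 0, and 1 with the title series as a block or the macrophage marker level as a covariate (Slamf1), 2 with the Y-linked signal as a covariate (Slamf1 and Cd84), and 0 to 1 when each array was left out. With the Y-linked signal it was 1 without stimulation (Cd84) and 2 averaged over stimulation. The Y-linked signal was high in DRKO arrays alone, so fits with it mainly set the DRKO arrays without that signal against WT. Over all genes, calls for DRKO minus WT after CpG were 16, and 296, 800 and 149 with the title series, the Y-linked signal and the macrophage marker level, and the cause was not tested. Other settings gave 76 (trend and robust), 90 (title numbers under 20), 26 (without the DRKO arrays of 20 and over), 7 (stricter filter), 6 (all probe sets) and 3 (groups of the contrast alone). Without 1 array that count was 267 (DRKO CpG 1), 29 (WT CpG 3), 8 (DRKO CpG 3), 7 (DRKO unstimulated 1 or 2) or 2 (DRKO CpG 2, WT CpG 1 or WT CpG 2). The count over all genes for CpG in DRKO was 1377, and 423 without DRKO unstimulated 2, 773 without DRKO unstimulated 1, 735 without DRKO CpG 1, 402 with the groups of the contrast alone and 812 with all probe sets tested one by one. For CpG in WT it was 2885, and 1277 without WT unstimulated 2 and 1416 without WT unstimulated 1, so the shares of all genes given beside the members move too. No member's call changed direction. No paired analysis was possible because the labels give no replicate numbers.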
